A study of Mus musculus with 9 samples.

Results

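The genes described here are 50 genes of mitosis, the spindle and chromosome segregation, measured by RNA-seq in splenic B cells of 3 subsets. They were chosen by name, as kinesin, spindle checkpoint, centromere, condensin, cytokinesis and mitotic cyclin genes, with earlier results of these data known. Their counts are therefore not those of a list chosen without the data. Each of the 50 names matched exactly 1 of the 24459 rows of the deposited expression table. The subsets were follicular (FO) B cells with high IgD, follicular B cells with low IgD (BDL) and marginal zone (MZ) B cells. They were sorted from the spleens of mice 8 to 10 weeks old. The library titles hold 3 dates, which are taken here to be those of the sorts. Each sort pooled 5 mice, and every date gave 1 library of each subset, so that there were 3 libraries per subset and 9 in all. FO and BDL B cells shared the gate B220+IgMintCD21intCD23+CD93- and differed in IgD, and MZ B cells were B220+IgMhiCD21hiCD23-CD93-. The mice carried no transgene or treatment that the labels name. The labels give the strain as C57/BL6 and the study gives B10.PL for the mice used for RNA-seq, and the strain was not checked in the data. The comparison of BDL with FO B cells asks how follicular cells with low IgD differ from those with high IgD, and MZ B cells serve as a further mature subset.

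In mitosis the duplicated chromosomes are condensed, attached to the spindle at their kinetochores and pulled apart, after which the cell divides by cytokinesis. Cyclin-dependent kinase 1, with cyclins A and B, drives entry, and the anaphase-promoting complex (APC/C) ends mitosis by marking cyclins and other proteins for destruction. Many of these genes are transcribed mainly from S phase to mitosis and are low in resting cells, so that their transcripts are often used as signs of cycling cells. Most FO and MZ B cells of an unimmunised spleen are resting.

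The values were FPKM (fragments per kilobase of transcript for a given number of mapped fragments), and columns summed to between 446033 and 517208. All 50 genes had a value above 0 in every library, with means over the 9 libraries from 0.178 FPKM to 28.4 FPKM, and 14 of them had a mean under 0.5 FPKM. The table holds no counts. From the steps between low values, a single fragment was estimated to add 0.0137 to 0.0185 FPKM to a gene of 1 kb, depending on the library. Tests were run with limma on log2(FPKM + 0.1) over the 13472 rows whose mean reached 0.1 FPKM, as that of all 50 genes did. A gene is said to be called where its adjusted p was under 0.05 and its fold change at least 2. Fold changes below are log2 fold changes on the log2(FPKM + 0.1) scale, which understates the change of genes near or under 0.1 FPKM. The 3 comparisons use the same 9 libraries, and the comparisons of BDL and of MZ with FO B cells share the 3 FO libraries. In RNA of sorted populations, a difference in the share of cycling cells and a difference in RNA per cell cannot be told apart. Nothing in the labels says that the libraries of a date came from different mice, and the p-values measure the spread between these 3 libraries per subset.

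Of the 50 mitotic genes, 19 (38%) were called higher in BDL than in FO B cells and 0 were called lower by limma. Over all 13472 rows tested, 266 (1.97%) were called higher and 41 (0.304%) lower. The 19 genes were Mki67, Top2a, Ncapg, Esco2, Espl1, Kif4, Kif11, Kif18b, Kif22, Bub1, Kntc1, Cenpe, Cdk1, Ccnb1, Cks2, Melk, Birc5, Nusap1 and Stil. At an adjusted p under 0.05 without a fold change minimum, 29 genes were higher in BDL (6.43% of rows) and 0 lower (1.75% of rows), and at an unadjusted p under 0.05 these counts were 33 and 0. The BDL libraries lay above all FO libraries for 35 genes (23.3% of rows) and below them for 1 gene, Hmmr (10.7% of rows). The median log2 fold change of the 50 genes was 0.83, against 0.04 over all rows, and it was 0.91, 0.78 and 0.76 in the pairs of libraries sorted on the same date. BDL exceeded FO in all 3 such pairs for 41 of the 50 genes, against 33.8% of rows. The count of 19 depends on the treatment of low values, since 2 genes were called with 1 FPKM added in place of 0.1 and 9 of the 36 tested with a minimum of 0.5 FPKM. In these settings 78 of 13472 and 190 of 11597 rows were called higher. Of the 19 genes, 8 had a mean under 0.1 FPKM in FO and passed the minimum of 0.1 FPKM through their BDL and MZ libraries. These 8 are also among the 29. In all, 10 of the 50 genes were under 0.1 FPKM in FO and passed in the same way. These 10 are among the 33, the 35 and the 41, and they enter the median.

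**Figure D1:**
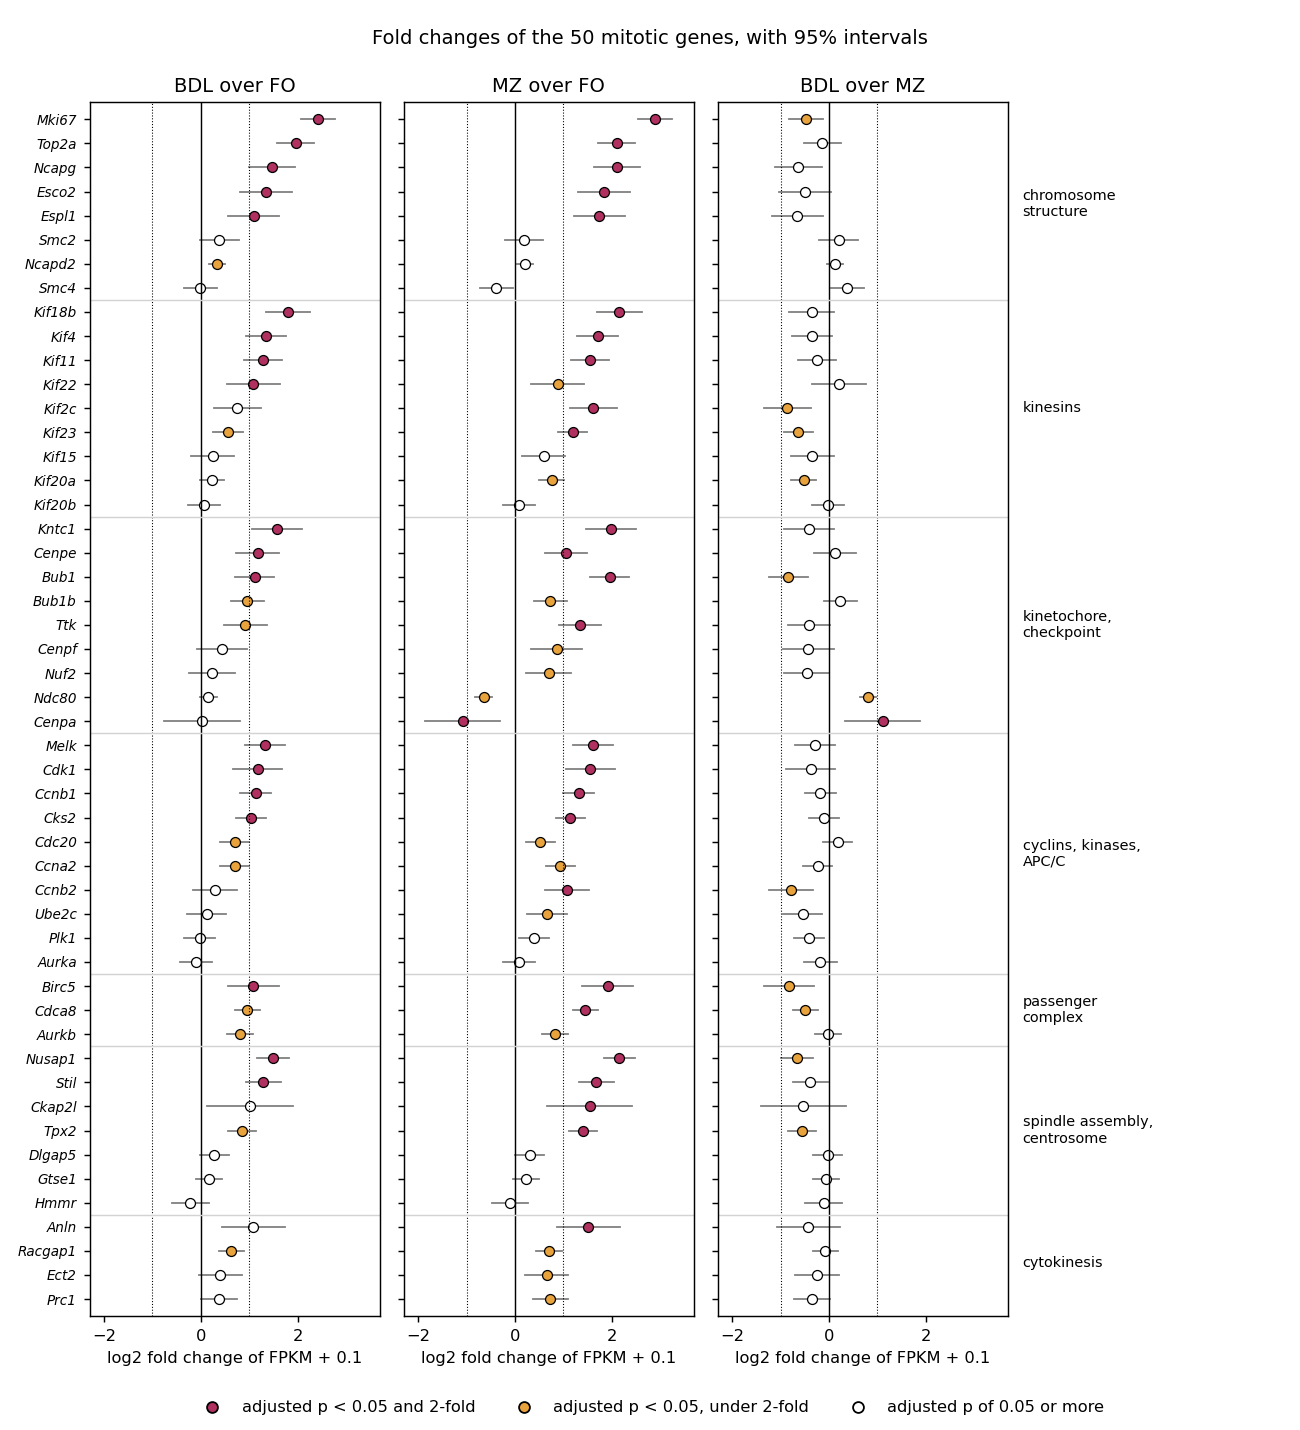
Log2 fold changes of the 50 genes for BDL over FO, MZ over FO and BDL over MZ, by role, with 95% intervals from limma and dotted lines at 2-fold. The 19 genes called higher in BDL than in FO are filled dark red in the left panel, and the 26 called higher in MZ than in FO in the middle panel, while in the right panel 1 gene, Cenpa, was called.

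Expression of many mitotic genes is repressed in resting cells through a promoter element named CHR (TTTGAA, in some genes TTCGAA), often with CCAAT boxes upstream, and these letters were searched in the promoters of the members. RefSeq promoters of 300 bases (250 before to 50 after the start, build GRCm38.p6) were matched by symbol for 43 of the 50 genes and were not matched for Smc4, Ccna2, Dlgap5, Esco2, Aurkb, Kif20a and Tpx2. On either strand, TTTGAA occurred in 33 of the 43 (76.7%), against 20.2% of 27025 genes, and TTCGAA in 3 (6.98% against 1.8%). CCAAT occurred in 34 (79.1% against 41.1%), and 24 held it at least 2 times (55.8% against 13.3%). An E2F motif, searched as the forms TTTCCCGC, TTTCGCGC, TTTGCCGC or TTTGGCGC, occurred in 4 of the 43 genes (9.3% against 2.6%). TTTGAA or TTCGAA together with CCAAT was found in 29 (67.4% against 8.61%). Positions were counted over every promoter window, 46 for the 43 genes and 32851 in all. Of the 51 TTTGAA or TTCGAA matches in the 46 windows 36 (70.6%) lay within 50 bases of the start, compared with 25.2% of the 7260 matches in all windows. Sites of Ect2 and Prc1 lie in overlapping windows and were counted again in each, so that these are not counts of distinct sites. TTTGAA was present in 10 of the 18 genes called higher in BDL that had a promoter and in 23 of the 25 others. A match is a description of letters and not a bound site.

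The stretches from 150 bases before to 30 after the start are shown for 6 genes, of which Mki67 had the largest log2 fold change of BDL over FO, Top2a, Kif18b, Kntc1 and Cdk1 were also called higher in BDL, and Hmmr was not called. Capitals mark matches to CCAAT, to the element forms TTTGAA or TTCGAA, or to the E2F letters in either direction, so that ATTGG and TTCAAA are matches on the other strand, and in Kntc1 a CCAAT and a TTCAAA share 1 base.
Mki67 (chr7:135716350-135716529, minus strand): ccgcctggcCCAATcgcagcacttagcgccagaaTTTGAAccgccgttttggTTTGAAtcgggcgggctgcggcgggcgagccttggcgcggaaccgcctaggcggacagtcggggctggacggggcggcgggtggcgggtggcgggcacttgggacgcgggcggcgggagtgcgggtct
Top2a (chr11:99024160-99024339, minus strand): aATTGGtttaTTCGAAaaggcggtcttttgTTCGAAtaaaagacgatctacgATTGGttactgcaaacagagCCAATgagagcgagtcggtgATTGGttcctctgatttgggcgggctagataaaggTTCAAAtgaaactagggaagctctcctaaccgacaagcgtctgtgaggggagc
Kif18b (chr11:102925095-102925274, minus strand): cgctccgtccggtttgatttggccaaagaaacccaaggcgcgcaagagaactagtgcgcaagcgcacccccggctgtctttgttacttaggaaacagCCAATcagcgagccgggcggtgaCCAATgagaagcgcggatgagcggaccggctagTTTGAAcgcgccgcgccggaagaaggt
Kntc1 (chr5:123749576-123749755, plus strand): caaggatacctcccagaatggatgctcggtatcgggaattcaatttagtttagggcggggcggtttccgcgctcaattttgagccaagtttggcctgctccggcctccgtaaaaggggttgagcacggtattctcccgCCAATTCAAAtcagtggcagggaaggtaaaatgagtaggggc
Cdk1 (chr10:69352883-69353062, minus strand): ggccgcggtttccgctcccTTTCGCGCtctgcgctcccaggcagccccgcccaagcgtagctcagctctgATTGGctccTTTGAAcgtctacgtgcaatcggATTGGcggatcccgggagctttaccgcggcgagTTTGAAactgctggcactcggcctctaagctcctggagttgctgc
Hmmr (chr11:40733408-40733587, minus strand): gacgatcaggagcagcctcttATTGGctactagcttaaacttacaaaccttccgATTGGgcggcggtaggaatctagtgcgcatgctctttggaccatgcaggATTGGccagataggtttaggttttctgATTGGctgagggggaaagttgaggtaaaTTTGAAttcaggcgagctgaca
The stretch of Hmmr holds 4 CCAAT and 1 TTTGAA, that of Top2a 4 CCAAT, 1 TTTGAA and 2 TTCGAA, and that of Kif18b 2 CCAAT and 1 TTTGAA. All 6 stretches hold CCAAT and TTTGAA, also that of the gene that was not called. They do not stand for all genes called higher in BDL, of which 10 of the 18 with a promoter held TTTGAA.

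Among the 8 genes of chromosome structure, 5 were called higher in BDL than in FO (1.97% of rows) and 5 higher in MZ than in FO (6.62% of rows). Mki67 (ENSMUSG00000031004, chromosome 7, 142881471 to 142908062 of NCBIM37) encodes Ki-67, a coat protein of mitotic chromosomes that is widely used to mark cycling cells. In the order of the sort dates, Mki67 was at 0.517, 0.571 and 0.451 FPKM in the FO, 2.99, 3.22 and 3.30 in the BDL and 5.10, 4.89 and 3.53 in the MZ libraries. The subsets did not overlap, with FO lowest and MZ highest. The BDL mean of 3.17 ± 0.159 FPKM (SD, n = 3) was 6.17 times the FO mean of 0.513 ± 0.0602 (SD, n = 3), or 2.42 on the log2 scale of the fit (standard error 0.15, adjusted p = 0.000158 from limma). MZ lay 2.90 above FO on this scale (adjusted p = 5.93e-06 from limma), the largest of the 50 genes in that comparison as well. BDL against MZ gave -0.48 (adjusted p = 0.0496 from limma), which stood under 0.05 in 8 of 22 alternatives and was at most 0.169.

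Top2a (chromosome 11, 98854257 to 98885503 of NCBIM37) encodes topoisomerase II alpha, which untangles sister DNA. It was at 1.06, 1.36 and 1.08 FPKM in the FO, 4.21, 4.91 and 5.40 in the BDL and 5.91, 5.93 and 4.27 in the MZ libraries. Both BDL and MZ lay above all FO libraries and overlapped each other. Its log2 fold change was 1.96 for BDL over FO (standard error 0.17, adjusted p = 0.000564 from limma) and 2.10 for MZ over FO (adjusted p = 4.34e-05), and BDL over MZ was -0.14 with a 95% interval of -0.52 to 0.24.

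Of the condensin subunits, Ncapg was called in BDL and in MZ over FO. Smc4, an ATPase of both condensins and the gene with the highest mean of the 50, was at 26.7, 33.9 and 31.9 FPKM in the FO, 26.4, 28.5 and 37.6 in the BDL and 23.0, 22.0 and 25.6 in the MZ libraries. FO and BDL overlapped, and MZ lay below both, with -0.39 for MZ over FO (adjusted p = 0.0921 from limma). Ncapd2, a regulatory subunit of condensin I, was at 7.46, 6.99 and 7.30 FPKM in the FO, 9.17, 9.38 and 8.89 in the BDL and 8.54, 8.77 and 7.88 in the MZ libraries. Its BDL libraries lay above the others, by 0.33 over FO (adjusted p = 0.0307 from limma, reaching 0.109 in the alternatives). Smc2, the partner of Smc4, had means of 4.07 FPKM in FO, 5.46 in BDL and 4.67 in MZ and was not called. Ncapg, another condensin I subunit, rose from 0.106 ± 0.0193 FPKM in FO to 0.473 ± 0.0665 in BDL and 0.807 ± 0.230 in MZ (SD, n = 3 each), with log2 fold changes over FO of 1.48 and 2.11 (adjusted p = 0.00549 and 0.000153 from limma).

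Esco2, which acetylates cohesin, and Espl1, the separase that cuts it, were both under 0.1 FPKM in FO. Esco2 had means of 0.0559 FPKM in FO, 0.297 in BDL and 0.472 in MZ (log2 fold change of BDL over FO 1.35, adjusted p = 0.0122 from limma). Espl1 had means of 0.0534, 0.233 and 0.423 FPKM (log2 fold change 1.09, adjusted p = 0.0270 from limma). The call of Esco2 in BDL was lost without FO replicate 1 (adjusted p = 0.0545), and that of Espl1 without any 1 of the FO libraries or BDL replicate 1 or 2 (adjusted p from 0.0765 to 0.0965). Both were called higher in MZ under each library left out.

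Of the 9 kinesins, the motor proteins that move along spindle microtubules, 4 were called higher in BDL than in FO (1.97% of rows) and 5 higher in MZ than in FO (6.62% of rows). Kif18b, which shortens the plus ends of microtubules (chromosome 11, 102766843 to 102786438 of NCBIM37), was at 0.0152, 0.0105 and 0.0357 FPKM in the FO, 0.381, 0.303 and 0.278 in the BDL and 0.520, 0.503 and 0.313 in the MZ libraries. The FO libraries lay below all others, and BDL and MZ overlapped. By the estimated depth, the FO values correspond to approximately 3.0, 2.0 and 7.1 fragments and the BDL values to 71.3, 63.3 and 67.4. The log2 fold change of BDL over FO was 1.80 (standard error 0.20, adjusted p = 0.00213 from limma) with 0.1 added, and the ratio of means was 15.7, the largest of the 50 genes.

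Kif4, a motor on chromosome arms, was at 0.0598, 0.0841 and 0.0743 FPKM in the FO, 0.291, 0.344 and 0.393 in the BDL and 0.517, 0.549 and 0.345 in the MZ libraries. BDL and MZ overlapped and lay above FO, by 1.35 and 1.71 (adjusted p = 0.00442 and 0.000228 from limma). Kif20b, needed late in cytokinesis, had the highest mean among the kinesins and was at 2.85, 3.64 and 3.59 FPKM in the FO, 3.47, 4.09 and 2.97 in the BDL and 3.75, 3.56 and 3.26 in the MZ libraries. All subsets of Kif20b overlapped, and the log2 fold change of BDL over FO was 0.06 (95% interval -0.27 to 0.39). Kif23, a motor of the central spindle, was at 1.15, 1.26 and 1.20 FPKM in the FO, 1.70, 2.17 and 1.62 in the BDL and 2.88, 3.17 and 2.60 in the MZ libraries. The subsets were separated in the order FO, BDL, MZ, with 1.19 for MZ over FO (adjusted p = 0.000293 from limma) and -0.63 for BDL over MZ (adjusted p = 0.00879). For BDL over FO it was 0.56 (adjusted p = 0.0402, under 0.05 in 9 of 22 alternatives).

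Kif11, which pushes spindle poles apart, was called higher in BDL (1.57 ± 0.148 FPKM) than in FO (0.584 ± 0.0538; SD, n = 3 each), by 1.29 on the log2 scale (adjusted p = 0.00415 from limma). Kif22, another chromosome arm motor, had its highest mean in BDL (1.63 FPKM, against 0.708 in FO and 1.41 in MZ), and its call over FO (1.09, adjusted p = 0.0313 from limma) was lost without any 1 of the FO libraries, BDL replicate 1 or 2 or MZ replicate 2 (adjusted p from 0.0510 to 0.121). Kif2c, a microtubule depolymerase at centromeres, was called in MZ over FO alone (1.62, adjusted p = 0.000706 from limma), with 0.76 for BDL over FO (adjusted p = 0.0672) and -0.87 for BDL over MZ (adjusted p = 0.0171). Kif15 and Kif20a, which act on the bipolar spindle and in cytokinesis, had log2 fold changes of 0.24 and 0.23 for BDL over FO and were not called in any comparison. Kif20a was at an adjusted p of 0.00136 for MZ over FO (0.76) from limma.

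Among the 9 kinetochore and checkpoint genes, 3 were called higher in BDL than in FO (1.97% of rows). At an adjusted p under 0.05, 2 genes, Ndc80 and Cenpa, were lower in MZ than in FO (12.5% of rows). Kntc1, a subunit of the complex that brings dynein to kinetochores (chromosome 5, 124199735 to 124271602 of NCBIM37), was at 0.0352, 0.0854 and 0.0472 FPKM in the FO, 0.346, 0.468 and 0.283 in the BDL and 0.617, 0.567 and 0.383 in the MZ libraries. FO lay below the other subsets, by 1.57 against BDL (standard error 0.22, adjusted p = 0.00555 from limma) and 1.99 against MZ (adjusted p = 0.000305). Cenpe, a kinesin of kinetochores, was at 0.331, 0.357 and 0.333 FPKM in the FO, 0.825, 0.926 and 0.942 in the BDL and 1.06, 0.871 and 0.577 in the MZ libraries. BDL and MZ overlapped, and BDL over FO was 1.18 (adjusted p = 0.00922 from limma). Its call in MZ over FO (1.05) was lost without MZ replicate 1, where the log2 fold change was 0.88.

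Ndc80 and Cenpa were lower in MZ than in FO and BDL B cells. Ndc80, the microtubule-binding subunit of the kinetochore (chromosome 17, 71845440 to 71876197 of NCBIM37), was at 4.30, 4.19 and 4.28 FPKM in the FO, 4.69, 4.73 and 4.84 in the BDL and 2.83, 2.63 and 2.59 in the MZ libraries. MZ lay below FO and BDL without overlap, and BDL just above FO, with means of 4.26 ± 0.0600 FPKM in FO, 4.75 ± 0.0791 in BDL and 2.68 ± 0.129 in MZ (SD, n = 3 each). The log2 fold change was -0.65 for MZ over FO (adjusted p = 0.000366 from limma) and 0.80 for BDL over MZ (adjusted p = 0.000130), and both stayed under 0.05 in all 22 alternatives. Nuf2, which forms a heterodimer with Ndc80, had means of 1.25 FPKM in FO, 1.47 in BDL and 2.07 in MZ, with 0.69 for MZ over FO (adjusted p = 0.0372 from limma, under 0.05 in 15 of 22 alternatives). Spc24 and Spc25, named here because they complete this complex, had log2 fold changes of 0.27 and 0.32 for MZ over FO (adjusted p = 0.499 and 0.205 from limma).

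Cenpa, the histone H3 variant that marks centromeres (chromosome 5, 30969150 to 30977200 of NCBIM37), was at 25.1, 35.4 and 25.5 FPKM in the FO, 27.6, 39.7 and 21.7 in the BDL and 13.4, 20.8 and 8.48 in the MZ libraries. Within each subset the library of the second date was the highest, and MZ lay below FO and BDL. Cenpa was called lower in MZ than in FO (-1.08, adjusted p = 0.0455 from limma) and higher in BDL than in MZ (1.10, adjusted p = 0.0421), each in 10 of 22 alternatives. The first call was lost without any 1 of the FO libraries, BDL replicate 1 or MZ replicate 1 or 3 (adjusted p from 0.0696 to 0.139), and the second without any 1 of the FO libraries, BDL replicate 1 or 2 or MZ replicate 1 or 3 (adjusted p from 0.0544 to 0.120). Blocked on the sort date, the adjusted p from limma was 0.00238 and 0.00229.

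Bub1 and Bub1b (BubR1) encode related proteins of the spindle checkpoint. Bub1 had 0.0536 ± 0.0296 FPKM in FO, 0.229 ± 0.0133 in BDL and 0.493 ± 0.0706 in MZ (SD, n = 3 each), without overlap, and was called in BDL (1.11, adjusted p = 0.00762) and MZ (1.96, adjusted p = 8.41e-05) over FO by limma. Bub1b had means of 0.998, 2.03 and 1.72 FPKM, highest in BDL, with 0.96 for BDL over FO (adjusted p = 0.00760 from limma). This is just under 2-fold on the scale of the fit, while the ratio of means was 2.03. Ttk, the checkpoint kinase Mps1, was at 0.92 for BDL over FO (adjusted p = 0.0248 from limma) and was called in MZ over FO (1.34, adjusted p = 0.00114). Cenpf, a large kinetochore and nuclear matrix protein, had means of 0.306, 0.453 and 0.653 FPKM and was not called.

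**Figure D2:**
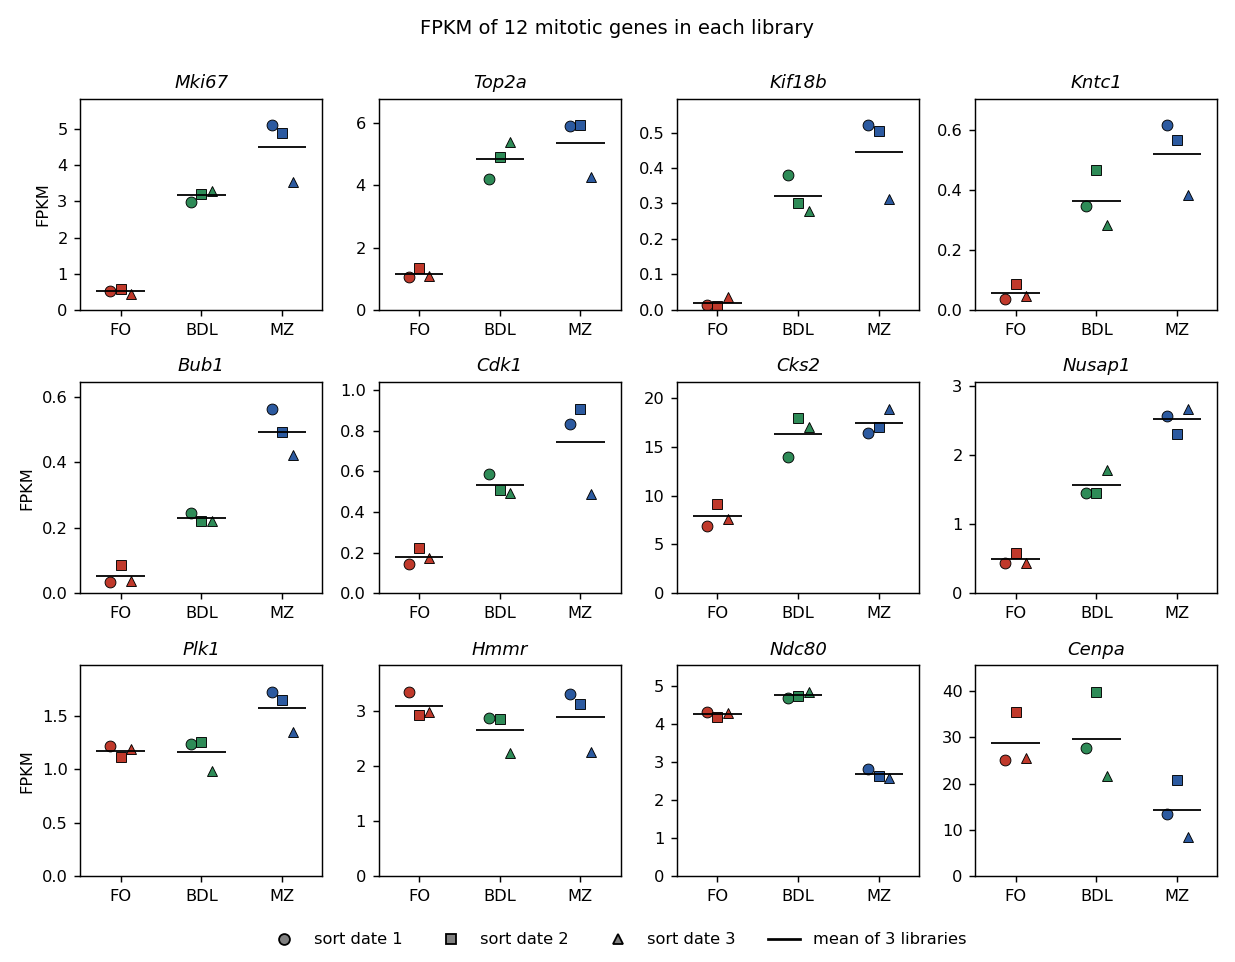
FPKM of 12 of the genes in each of the 9 libraries (linear axes that start at 0), with symbols for the sort date and bars for the mean of 3 libraries. FO libraries lie below BDL and MZ in the panels of Mki67, Top2a, Kif18b, Kntc1, Bub1, Cdk1, Cks2 and Nusap1, BDL overlaps FO in the panel of Plk1 and lies just below it in that of Hmmr, and Ndc80 and Cenpa are lowest in MZ.

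Of the 10 mitotic cyclins, kinases and APC/C genes, 4 were called higher in BDL than in FO (1.97% of rows). Cdk1, the main mitotic kinase (chromosome 10, 68799383 to 68815686 of NCBIM37), was at 0.143, 0.223 and 0.174 FPKM in the FO, 0.589, 0.510 and 0.495 in the BDL and 0.833, 0.909 and 0.487 in the MZ libraries. FO was lowest in every date, and BDL and MZ overlapped only through MZ replicate 3. BDL over FO was 1.18 (standard error 0.22, adjusted p = 0.0172 from limma), a call lost without FO replicate 1 or 3 or BDL replicate 1 or 2 (adjusted p from 0.0502 to 0.0749), and MZ over FO was 1.56 (adjusted p = 0.00112). Cks2, a small subunit of Cdk1 complexes, was at 6.86, 9.12 and 7.62 FPKM in the FO, 13.9, 17.9 and 17.1 in the BDL and 16.4, 17.0 and 18.9 in the MZ libraries. FO lay below the other subsets, which overlapped. Cks2 had the highest mean of the 19 called genes, and its value of 1.04 for BDL over FO (adjusted p = 0.00354 from limma) lay just past 2-fold and was 0.95 without FO replicate 1 and 0.97 without BDL replicate 2.

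Ube2c, the ubiquitin-conjugating enzyme of the APC/C, was at 3.26, 3.57 and 2.83 FPKM in the FO, 3.66, 3.95 and 2.94 in the BDL and 5.75, 5.92 and 4.02 in the MZ libraries. BDL overlapped FO and lay below MZ, with 0.12 for BDL over FO (adjusted p = 0.706 from limma) and 0.67 for MZ over FO (adjusted p = 0.0247). Melk, a kinase that peaks in mitosis, was at 0.0527, 0.0608 and 0.0294 FPKM in the FO, 0.236, 0.267 and 0.307 in the BDL and 0.430, 0.370 and 0.271 in the MZ libraries. It was under 0.1 FPKM in every FO library and called higher in BDL (1.33, adjusted p = 0.00456 from limma) and in MZ (1.62, adjusted p = 0.000284).

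Of the 3 cyclins, 1 was called higher in BDL than in FO (1.97% of rows). Ccnb1 (cyclin B1) was called in BDL (1.13, adjusted p = 0.00302 from limma) and in MZ (1.31, adjusted p = 0.000222) over FO. Ccnb2 (cyclin B2) had means of 0.914 FPKM in FO, 1.16 in BDL and 2.06 in MZ and was called in MZ over FO (1.08, adjusted p = 0.00410 from limma; 0.998 without MZ replicate 2, where the call was lost), with 0.30 for BDL over FO. Ccna2 (cyclin A2) had 0.70 for BDL and 0.93 for MZ over FO, each at an adjusted p under 0.05 (adjusted p = 0.0165 and 0.00102 from limma). Cdc20, the activator of the APC/C in mitosis, had its highest mean in BDL (2.58 ± 0.0807 FPKM, against 1.56 ± 0.272 in FO and 2.28 ± 0.189 in MZ; SD, n = 3 each). The kinases Plk1 and Aurka, which act at centrosomes and spindle poles, had log2 fold changes of -0.02 and -0.10 for BDL over FO (95% intervals -0.34 to 0.29 and -0.44 to 0.24), and neither passed 0.05 in any of the 3 comparisons.

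The chromosomal passenger complex corrects attachments of chromosomes to the spindle. Its 3 genes among the 50 were higher in BDL than in FO at an adjusted p under 0.05 (6.43% of rows), and 1 was called (1.97% of rows). Incenp, its scaffold and not among the 50, was at 0.23 (adjusted p = 0.188 from limma). Aurkb, its kinase, was at 2.48, 2.31 and 2.20 FPKM in the FO, 4.62, 3.80 and 4.13 in the BDL and 4.81, 4.02 and 3.87 in the MZ libraries. BDL and MZ overlapped and lay above FO, with 0.81 for BDL over FO (adjusted p = 0.00572 from limma) and -0.01 for BDL over MZ. Birc5 (survivin) was at 0.650, 0.577 and 0.557 FPKM in the FO, 1.59, 1.49 and 1.08 in the BDL and 3.10, 2.91 and 1.75 in the MZ libraries. The subsets were separated, and the call of BDL over FO (1.08, adjusted p = 0.0266 from limma) was lost without any 1 of the FO libraries or BDL replicate 1 or 2 (adjusted p from 0.0791 to 0.101). BDL over MZ was -0.83 (adjusted p = 0.0277). Cdca8 (borealin) was at 0.680, 0.823 and 0.729 FPKM in the FO, 1.59, 1.51 and 1.51 in the BDL and 2.35, 2.30 and 1.97 in the MZ libraries. It was also separated by subset, with 0.96 for BDL over FO (adjusted p = 0.00266 from limma), 1.45 for MZ over FO (adjusted p = 4.12e-05) and -0.49 for BDL over MZ (adjusted p = 0.0133).

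Of the 7 genes of spindle assembly and the centrosome, 2 were called higher in BDL (1.97% of rows) and 4 higher in MZ (6.62% of rows) than in FO. Nusap1, which bundles spindle microtubules, was at 0.442, 0.590 and 0.438 FPKM in the FO, 1.45, 1.45 and 1.79 in the BDL and 2.57, 2.31 and 2.68 in the MZ libraries. Its subsets were separated in the order FO, BDL, MZ, with 1.50 for BDL over FO (standard error 0.14, adjusted p = 0.00113 from limma) and -0.66 for BDL over MZ (adjusted p = 0.010). Stil, needed for centriole duplication, was at 0.0464, 0.0740 and 0.0467 FPKM in the FO, 0.256, 0.288 and 0.295 in the BDL and 0.445, 0.437 and 0.321 in the MZ libraries. It was separated in the same order and called in BDL (1.29, adjusted p = 0.00301 from limma) and MZ (1.68, adjusted p = 0.000112) over FO.

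Hmmr, a spindle pole protein also known as RHAMM (chromosome 11, 40514890 to 40546939 of NCBIM37), had the highest mean of this group and was at 3.34, 2.92 and 2.98 FPKM in the FO, 2.86, 2.86 and 2.24 in the BDL and 3.31, 3.12 and 2.25 in the MZ libraries. BDL lay just below FO, and MZ overlapped both. The log2 fold change of BDL over FO was -0.22 (95% interval -0.59 to 0.16, adjusted p = 0.458 from limma). Tpx2, an activator of Aurora A at the spindle, was separated in the order FO, BDL, MZ (0.374, 0.753 and 1.16 FPKM) and was called in MZ over FO (1.41, adjusted p = 9.76e-05 from limma). Ckap2l, a spindle protein, varied between FO libraries, with 0.130, 0.528 and 0.185 FPKM, and its call in MZ over FO (1.55, adjusted p = 0.0178 from limma) was lost without FO replicate 1 or 3 or MZ replicate 1 or 2 (adjusted p from 0.0568 to 0.0697). Dlgap5 and Gtse1, which bind spindle microtubules, had log2 fold changes of 0.27 and 0.16 for BDL over FO and were not called.

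Of the 4 cytokinesis genes, 1 was higher in BDL than in FO at an adjusted p under 0.05 (6.43% of rows), and its change was under 2-fold. This gene, Racgap1, a subunit of centralspindlin, was at 2.45, 2.14 and 2.49 FPKM in the FO, 4.02, 3.78 and 3.30 in the BDL and 4.06, 4.11 and 3.55 in the MZ libraries. BDL and MZ overlapped and lay above FO, by 0.63 (adjusted p = 0.0144 from limma) and 0.70 (adjusted p = 0.00215). Prc1, which bundles microtubules of the central spindle, was at 1.67, 1.69 and 1.71 FPKM in the FO, 2.28, 2.52 and 1.94 in the BDL and 3.50, 2.98 and 2.30 in the MZ libraries. The BDL libraries lay above FO and overlapped MZ, with 0.38 for BDL over FO (adjusted p = 0.196 from limma) and 0.73 for MZ over FO (adjusted p = 0.0102). Anln, the scaffold of the contractile ring, was at 0.0547, 0.0569 and 0.0673 FPKM in the FO, 0.345, 0.297 and 0.120 in the BDL and 0.444, 0.398 and 0.251 in the MZ libraries. BDL replicate 3 stood apart from the other BDL libraries, and the log2 fold change of 1.09 had an adjusted p of 0.0556 from limma, and with the date of the sort as a block this was 0.0265. Ect2, the exchange factor that activates RhoA, had means of 0.480, 0.673 and 0.803 FPKM and was not called.

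MZ B cells had higher levels than FO B cells for more of the genes. By limma, 26 of the 50 (52%) were called higher in MZ (6.62% of rows) and 1, Cenpa, lower (3.59% of rows). Of the 26, 10 had a mean under 0.1 FPKM in FO and passed the minimum of 0.1 FPKM through their BDL and MZ libraries. At an adjusted p under 0.05 alone, 38 were higher (15.2% of rows) and 2, Cenpa and Ndc80, lower (12.5% of rows). MZ libraries lay above all FO libraries for 42 genes (24.2% of rows) and below them for 3, which were Smc4, Ndc80 and Cenpa (21.9% of rows). The 10 genes under 0.1 FPKM in FO are among both the 38 and the 42. The median log2 fold change was 1.07, against -0.00 over all rows.

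BDL and MZ B cells were compared directly in the same fit. By limma, 1 gene (Cenpa) was called higher in BDL (3.77% of rows) and 0 were called lower (5.04% of rows), with 3 and 15 genes at an unadjusted p under 0.05. At an adjusted p under 0.05 alone, 2 genes, Cenpa and Ndc80, were higher in BDL (15.6% of rows) and 10 were lower (12.4% of rows), namely Mki67, Kif2c, Kif20a, Kif23, Bub1, Ccnb2, Birc5, Cdca8, Tpx2 and Nusap1. BDL libraries lay above all MZ libraries for 5 genes (21.5% of rows) and below them for 15 (17.4% of rows). The median log2 fold change of BDL over MZ was -0.35, against 0.04 over all rows, and 28 of the 50 genes were lower in BDL in all 3 same-date pairs, against 31.5% of rows.

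The means followed the order FO, BDL, MZ from low to high for 38 of the 50 genes (76%), against 19.9% of rows. The 38 include the 10 genes under 0.1 FPKM in FO, which passed the minimum through their BDL and MZ libraries. The order FO, MZ, BDL held for 6 genes, which were Smc2, Ncapd2, Kif22, Bub1b, Cenpe and Cdc20. Plk1 and Aurka had the order BDL, FO, MZ, Ndc80 and Cenpa the order MZ, FO, BDL, Hmmr the order BDL, MZ, FO, and Smc4 the order MZ, BDL, FO. Without any overlap between libraries, the order FO, BDL, MZ held for 11 genes (3.66% of rows), which were Mki67, Ncapg, Espl1, Kif2c, Kif23, Bub1, Birc5, Cdca8, Tpx2, Nusap1 and Stil.

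The libraries of the third date were the lowest of their subset for most of these genes in MZ and BDL, but not in FO. MZ replicate 3 was the lowest of the MZ libraries for 43 of the 50 genes, against 32.1% of rows, and BDL replicate 3 the lowest of the BDL libraries for 33, against 44.1% of rows. FO replicate 3 was the lowest FO library for 12 genes, against 19.8% of rows, and FO replicate 1 for 27. Relative to the FO mean, the median of the 50 genes was 1.20, 1.13 and 0.82 on the log2 scale in MZ replicates 1 to 3 and 0.85, 0.86 and 0.73 in the BDL replicates, and -0.06, 0.09 and -0.02 in the FO replicates. Without MZ replicate 3, the median of BDL over MZ was -0.51, and 2 genes were called lower in BDL than in MZ (714 of 13472 rows). The part of the sort date in these values was not tested.

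**Figure D3:**
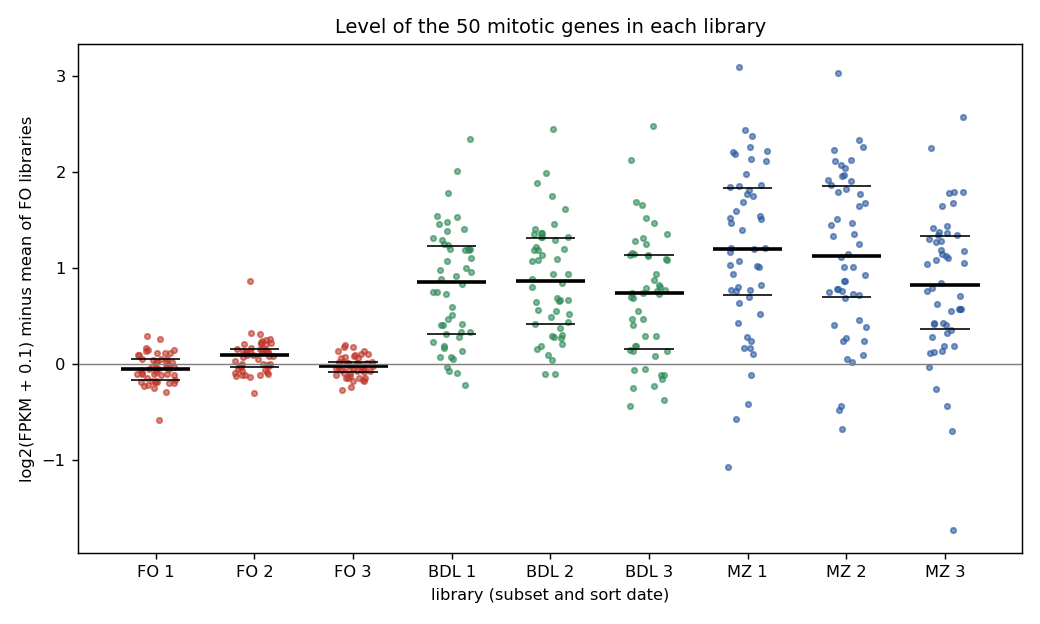
Each point is 1 of the 50 genes in 1 library, as log2(FPKM + 0.1) minus the mean of the 3 FO libraries, with a thick bar at the median and thin bars at the quartiles. The medians lie near 0 in the FO libraries, between 0.73 and 0.86 in the BDL and between 0.82 and 1.20 in the MZ libraries.

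The ratio of means went with the level in FO. The 10 genes under 0.1 FPKM in FO (Esco2, Espl1, Kif2c, Kif4, Kif18b, Bub1, Kntc1, Melk, Stil and Anln) had a median ratio of 4.86 for BDL over FO (3.34 to 15.7) and 8.06 for MZ over FO (6.11 to 21.8). These 10 genes passed the minimum of 0.1 FPKM through their BDL and MZ libraries, and 8 were called in BDL and 10 in MZ. Of all rows, 1.97% and 6.62% were called higher in BDL and in MZ than in FO. The 19 genes between 0.1 and 1 FPKM in FO had median ratios of 2.30 and 2.97, with 9 and 13 called. The 21 genes at or above 1 FPKM in FO had median ratios of 1.23 (0.861 to 4.15) and 1.46 (0.496 to 4.60), with 2 called in BDL (Top2a and Cks2) and 3 called higher in MZ. The FO value enters both measures, so that this is a description. With 1 FPKM added, 5 genes were called higher in MZ than in FO (413 of 13472 rows).

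**Figure D4:**
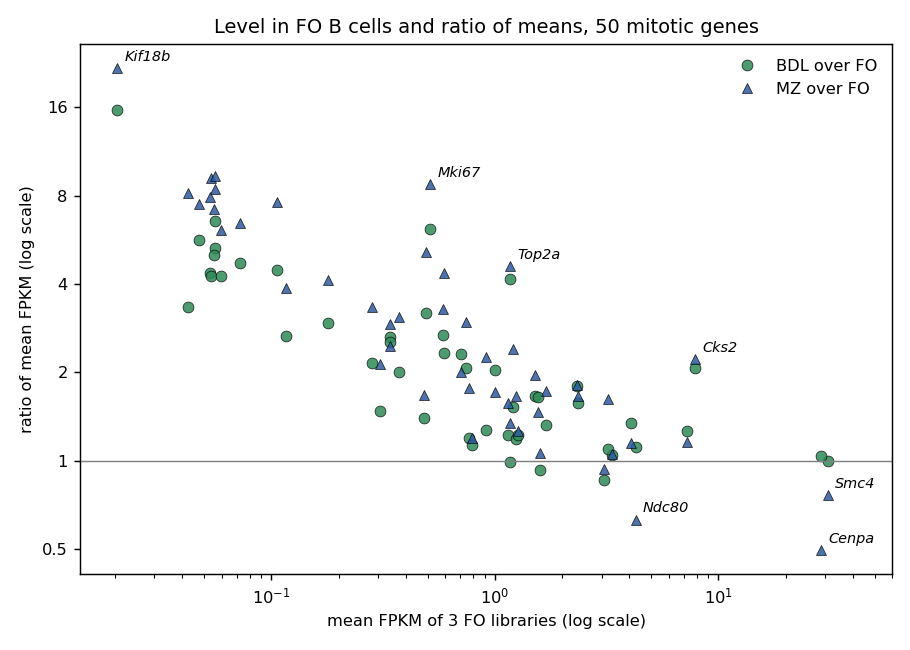
Ratio of mean FPKM of BDL over FO (green circles) and MZ over FO (blue triangles) against the mean FPKM in FO for the 50 genes, both axes on a log scale. Genes at low levels in FO, such as Kif18b, have the higher ratios, and Smc4, Ndc80, Cenpa and Hmmr lie below 1 in MZ over FO.

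Of 85 other genes of the same pathways, 84 were tested, and 3 were called higher in BDL than in FO and 0 lower by limma (20 and 0 at an unadjusted p under 0.05), where 1.97% and 0.304% of all rows were called. In MZ over FO 8 were called higher and 1 lower (6.62% and 3.59% of rows), and in BDL over MZ 2 higher and 1 lower (3.77% and 5.04% of rows). Nothing particular to these 84 genes is read from counts this small. Cdca5 (sororin), which protects cohesion, rose from 0.266 ± 0.0905 FPKM in FO to 0.857 ± 0.0963 in BDL (SD, n = 3 each; 1.41, adjusted p = 0.00852 from limma) and had the largest fold change of the 12 cohesin genes. Ncaph, the condensin I subunit that closes the ring, was highest in BDL, with 2.56 ± 0.112 FPKM against 1.05 ± 0.0913 in FO and 1.50 ± 0.182 in MZ (SD, n = 3 each; 1.22 over FO, adjusted p = 0.00119 from limma). Wee1, the kinase that holds Cdk1 inactive, was also called in BDL (1.25, adjusted p = 0.00389 from limma) and in MZ (1.10, adjusted p = 0.00146) over FO.

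Among 34 other kinetochore and checkpoint genes tested, 0 were called in BDL over FO by limma (10 higher and 0 lower at an unadjusted p under 0.05), and the largest log2 fold change was 0.83 for Cenph (adjusted p = 0.0389). Casc5, a kinetochore scaffold, was called higher in BDL than in MZ (1.05, adjusted p = 0.00393 from limma), and Cenph and Cenpp, subunits of the inner kinetochore, were called higher in MZ than in FO (1.06 and 1.19). None of the 17 APC/C genes was called in any comparison by limma (at an unadjusted p under 0.05, 3 higher and 0 lower in BDL over FO, 7 and 0 in BDL over MZ, and 1 and 4 in MZ over FO). The largest value for BDL over FO was 0.37 for Anapc13 (adjusted p = 0.112 from limma).

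Of the genes of mitotic entry, Cdc25b, a phosphatase that activates Cdk1, had 31.6 ± 2.03 FPKM in FO, 33.1 ± 2.83 in BDL and 8.98 ± 1.78 in MZ (SD, n = 3 each) and was called lower in MZ than in FO (-1.82, adjusted p = 3.62e-05 from limma) and higher in BDL than in MZ. Its relatives Cdc25a and Cdc25c were called higher in MZ than in FO (1.03 and 1.08). Mybl2 (B-Myb), a factor that activates mitotic genes, was called higher in MZ than in FO (1.84, adjusted p = 4.99e-05 from limma) and lower in BDL than in MZ (-1.01, adjusted p = 0.00153), and Ncapg2 of condensin II was called higher in MZ than in FO (1.01).

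Some markers of other cells were called higher in BDL than in FO, where 1.97% of all rows were called higher. Of 5 B-1 cell markers, 4 (Zbtb32, Bhlhe41, Cd5 and Spn) were called higher in BDL than in FO, and their summed level was 18.0 to 22.5 FPKM in BDL, 6.04 to 7.51 in FO and 8.23 to 15.9 in MZ libraries. Of 6 markers of transitional B cells, Cd93 and Myb were called higher in BDL, and Rag1 and Rag2 lay under the minimum of 0.1 FPKM. Their summed level was 474 to 702 FPKM in BDL, 306 to 368 in FO and 364 to 464 in MZ libraries. Most of it was Cd24a and Vpreb3, which were not called in BDL over FO. Rgs13, a germinal centre marker, was called higher in BDL, and the summed level of the germinal centre markers was 44.9 to 63.3 FPKM in BDL and 58.9 to 63.8 in FO. Most of that sum was Bcl6 and Neil1, which were not called in BDL over FO, so it does not show the level of Rgs13. Of 7 plasma cell markers, Sdc1 was called higher, and the summed level was 132 to 209 FPKM in BDL and 190 to 227 in FO libraries, with Tnfrsf17 at 0 in both. Most of this sum was Irf4 (mean 137 FPKM in BDL and 179 in FO). The sum therefore does not show the level of Sdc1. Among 6 myeloid genes Emr1 was called higher in BDL, with summed levels of 6.18 to 12.4 FPKM in BDL and 2.66 to 9.44 in FO. Of 7 erythroid genes, Hbb-b1 was called higher in BDL, with summed levels of 8.49 to 9.68 FPKM in BDL and 2.55 to 6.14 in FO. Of 8 T cell and 5 NK cell markers 0 were called in BDL over FO by limma (0 and 2 at an unadjusted p under 0.05). The B cell genes Cd79a, Cd79b, Ms4a1 and Pax5 were abundant in all subsets, and all 7 MZ markers were called higher in MZ than in FO. Of these 7, Cd9 (1.84, adjusted p = 0.000134 from limma) and Ackr3 (1.68, adjusted p = 0.0284) were also called higher in BDL than in FO, while the summed level was 288 to 336 FPKM in BDL, 293 to 305 in FO and 1209 to 1466 in MZ libraries. The part of the other markers in the results on the mitotic genes was not tested.

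Reads of neighbouring or near-identical genes could enter some values. In GENCODE M1 on NCBIM37, exons of 9 of the 50 genes overlap an annotated gene on the opposite strand, by 32.3% of the exonic length for Kif20a (with Cdc23), 22.8% for Ube2c (Tnnc2), 15.1% for Kif4 (Pdzd11), 14.6% for Ccna2 (Exosc9) and 13.3% for Ncapg (Lcorl). The labels describe a library without strand and the study a stranded kit, so that reads of these pairs may not be told apart. Transcripts of 7 genes align elsewhere in the genome at 95% identity or more over at least 300 bases, Ccnb1 at 5 places, Cks2 at 3 and Ncapd2, Nuf2, Prc1, Racgap1 and Smc2 at 1 each, and the values of these genes are uncertain to that extent.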

How the data were processed

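RNA-seq was analysed for 9 libraries of FO, BDL and MZ B cells, 3 per subset, grouped by the labels. The authors aligned reads to mm9 with TopHat2 (2.1.0 per the submitters' processing notes) and deposited FPKM from Cufflinks, whose version and annotation are not given in the sources used here. The labels describe single-end reads without strand, whereas the methods of the study describe a stranded kit.

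The 50 genes and all gene lists were chosen with earlier results of these data known. limma 3.58.1 in R 4.3.3 was fitted to log2(FPKM + 0.1) over all 9 libraries, with the subset as the only term, a trended empirical Bayes prior and Benjamini-Hochberg adjustment over the 13472 rows whose mean reached 0.1 FPKM. A minimum of 0.5 FPKM would have left out 14 of the 50 genes. Genes were called at an adjusted p under 0.05 and at least 2-fold. Intervals of fold changes are 95% intervals of that fit. Depth was estimated from steps between low FPKM values of 1454 genes with 1 transcript. Between 68.4% and 77.5% of these values were no further than 0.1 from a whole fragment, so no counts were recovered and no count test was run.

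Values in every library were given, by a rule, for Mki67, Top2a and, in each role, the 2 genes with the highest mean and the 2 with the largest change between BDL and FO. Of the other pathway genes, those called and the one with the largest change per list were named. Spc24, Spc25 and the genes in sentences on groups were added after their values were seen. Values of some single marker genes are not reported here.

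Replicate numbers stand for the date in the titles, taken to be that of the sort, so that the numbers pair the libraries. Deviations of same-date libraries from their subset means correlated at 0.15, -0.05 and 0.05 for BDL and FO, 0.11, 0.19 and 0.25 for BDL and MZ, and 0.03, 0.02 and 0.02 for MZ and FO. The date was left out of the main fit and entered as a block in an alternative. In data simulated for BDL over FO over 13472 rows, 34.5%, 87.5% and 93% of 200 changed rows were called at log2 changes of 1, 1.5 and 2, with 7, 4 and 4 false calls. The changed rows were drawn at any level, not at the levels of the mitotic genes, and the change was added to log2(FPKM + 0.1). A change of 1 equals the 2-fold minimum, so rows estimated below it were not called whatever their p. Promoter letters were searched in RefSeq sequences of GRCm38.p6, and gene positions came from GENCODE M1 on NCBIM37, which is the build mm9. Tables and plots used Python 3.11.15, pandas 2.3.3, scipy 1.17.1 and matplotlib 3.10.9.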

Additional observations from a re-analysis of the deposited data

How the results depend on the processing

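The direction of the median over the 50 genes was the same in all alternatives of each comparison, and its size depended on the constant and the minimum. With 0.01 added the median of BDL over FO was 1.01, and 2 genes were called lower in BDL than in MZ, and both values were the same with 0.01 added and no minimum. In these settings 783 of 13472 and 974 of 18518 rows were called lower in BDL than in MZ. With 1 added the medians were 0.30 for BDL over FO, -0.14 for BDL over MZ and 0.45 for MZ over FO, and 2 and 5 genes were called higher in BDL and MZ than in FO. Of all 13472 rows, 78 and 413 were called higher. With a minimum of 0.5 FPKM (36 of the genes tested) the medians were 0.48, -0.18 and 0.73, with 9 and 13 genes called higher (190 and 642 of 11597 rows). With a minimum of 1 FPKM (30 tested) they were 0.38, -0.16 and 0.72, with 7 and 9 called higher (150 and 525 of 10765 rows). Fewer genes were tested in both. By the ratio of mean FPKM the median of BDL over FO was 1.02, and 2 genes were called lower in BDL than in MZ (802 of 13472 rows).

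The call of Cenpa was lost in both comparisons with MZ, leaving 0 genes higher in BDL than in MZ and 0 lower in MZ than in FO, with no minimum, with 0.01 added and no minimum, in fits of the 6 libraries compared, with upper quartile scaling and with quantile normalization. With an untrended prior it was lost in MZ against FO alone, leaving 0 genes. The cause was not tested. By the adjusted p alone, 29 genes were higher in BDL than in FO (6.43% of rows). In BDL against MZ 2 were higher (15.6% of rows) and 10 lower (12.4% of rows), and 2 were lower in MZ than in FO (12.5% of rows).

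With the sort date as a block, which pairs the libraries, 20 and 26 genes were called higher in BDL and in MZ than in FO (277 and 919 of 13472 rows). Anln in BDL over FO was gained (adjusted p = 0.0265 from limma), and no other call of a mitotic gene changed. By the adjusted p alone with this block, an alternative chosen after seeing the data, as was 0.01 added with no minimum, 31 genes were higher in BDL than in FO, for MZ against FO 42 were higher and 3 lower, and 3 were higher and 15 lower in BDL than in MZ. Of all 13472 rows, 1966 were higher in BDL than in FO by this rule. For MZ against FO 2741 rows were higher and 2489 lower, and for BDL against MZ 3245 were higher and 2291 lower.

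Leaving out 1 library at a time gave 13 to 22 genes called higher and 0 to 0 called lower in BDL than in FO, for MZ against FO 24 to 28 higher and 0 to 1 lower, and 0 to 1 higher and 0 to 2 lower in BDL than in MZ. Of all 13472 rows, 221 to 283 were called higher and 18 to 44 lower in BDL than in FO. For MZ against FO these were 832 to 912 and 452 to 504, and for BDL against MZ 487 to 539 and 613 to 745. The medians of the 50 genes ranged from 0.77 to 0.88, from 0.95 to 1.17 and from -0.51 to -0.27. Of the 47 calls, 11 were lost without at least 1 library, and 7 held under every alternative that tested the gene. FO values near 0.05 FPKM rest on few fragments, and their ratios are the least certain.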
